A study of Mus musculus with 4 samples.

Results

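A set of 10 genes for carrying fatty acids inside cells, coating lipid droplets, exporting lipids or drugs, and switching such genes on was followed in BV-2, an immortalised line of mouse microglia. They were picked by gene name, 10 of 55401 genes in the count table: Fabp3, Fabp4, Fabp5, Plin2, Abca1, Abcg1, Abcg2, Nr1h2, Nr1h3 and Pparg. They were chosen by name with their counts in this same comparison already known, so their fold changes and adjusted p-values are a description of these genes and support nothing further about them as a set. The data were RNA sequencing of 4 libraries, 2 labelled WT (titles sh c1 and sh c2, called control here) and 2 labelled SIX2 knockdown (sh s1 and sh s2). All 4 came from cells given lipopolysaccharide (LPS), a bacterial cell wall component, at 100 ng/mL for 24 h, so no library shows the cells without LPS. SIX2 is a homeobox transcription factor, and the question was how its knockdown changes LPS-treated microglia. Whether same-group libraries came from different cultures is not stated in any source used here, so p-values reflect the spread of these 4 libraries alone, and that spread may be technical.

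Fatty acid binding proteins (FABPs) are small cytosolic carriers that hold long-chain fatty acids and deliver them to membranes, enzymes and nuclear receptors. Surplus fatty acid and cholesterol are stored as esters in lipid droplets, whose surface is coated by perilipins such as PLIN2. Cholesterol leaves macrophages and microglia through the transporters ABCA1 and ABCG1, whose genes are switched on by the oxysterol-sensing liver X receptors (LXRs), and PPAR-gamma, a fatty acid sensor, is the classical activator of Fabp4.

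The libraries held 60956299 to 75672836 estimated counts each, and 42.1% to 47.2% of values from 1 to 20 were multiples of 4, where an even spread over these values would give 25.0%. For the floor and for fragment numbers, 4 counts were assumed to stand for 1 sequenced fragment. A count of 0 was taken to allow up to 12 counts (3 fragments), or 0.159 to 0.197 CPM (the count divided by library size, on the usual scale). This limit is for counting error. Library size was the plain total count for this floor and for the marker genes below. Other CPM, except those per kilobase, used library sizes scaled by TMM, with factors from 0.9856 to 1.015. Six2 itself had 0 counts in all 4 libraries, so the knockdown could not be checked on its target. All 10 microglia and macrophage markers lay above the floor in all 4 libraries. Their summed level was 2350 and 2420 CPM in control and 2030 and 2000 CPM in knockdown libraries. Of the 10, 4 were called lower (Csf1r, C1qa, Lyz2 and Aif1) and 0 higher in the edgeR test described below, at an adjusted p of 0.05. Over all genes tested 0.547% were called lower. The other markers of this list were not called, among them Cd68, the most abundant, with 655 and 676 CPM in control and 649 and 619 CPM in knockdown libraries. Of 8 adipocyte markers, 7 had 0 counts in every library, Adipoq, Lep and Plin1 among them, and only Lipe was detected (17.0 to 19.1 CPM). Traces of neural transcripts differed between libraries: the 6 neuron markers summed to 6.69 and 6.82 CPM in control, 3.41 CPM in knockdown 1 and 0 in knockdown 2, and the myelin gene Mbp had 658, 575, 298 and 4 counts in that order. The other marker lists summed to 24.9 to 48.3 CPM (oligodendrocyte), 2.10 to 8.11 CPM (astrocyte), 0.0622 to 0.591 CPM (fibroblast) and 219 to 234 CPM (endothelial, nearly all of it Kdr). Of these, 5 of 6 oligodendrocyte, 5 of 6 astrocyte and 4 of 6 endothelial markers were tested, and none was called. With 0 of 5 fibroblast markers tested, no call was possible for that list.

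Of the 10 genes, 9 passed the filter on low counts, and in edgeR's quasi-likelihood test 1 rose and 2 fell at a Benjamini-Hochberg adjusted p of 0.05. Over all 15733 genes tested, 0.953% passed the same threshold (0.407% higher and 0.547% lower). The gene that rose was Abcg2, 2.47-fold, and those that fell were Fabp4, to 0.641 of its control level, and Fabp5, to 0.745. The groups did not overlap in CPM for 7 of the 9 tested genes, and for 47.6% of all genes tested. An unadjusted p under 0.05 was found for 5 of the 9 and for 14.2% of all genes tested. The median log2 fold change (knockdown minus control) was -0.13 over the 9 genes and -0.01 over all genes tested. Since the comparison itself was used to choose the genes, nothing is read from these counts. In bulk RNA, fewer cells that express a gene and less of its RNA per cell cannot be told apart.

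**Figure D1:**
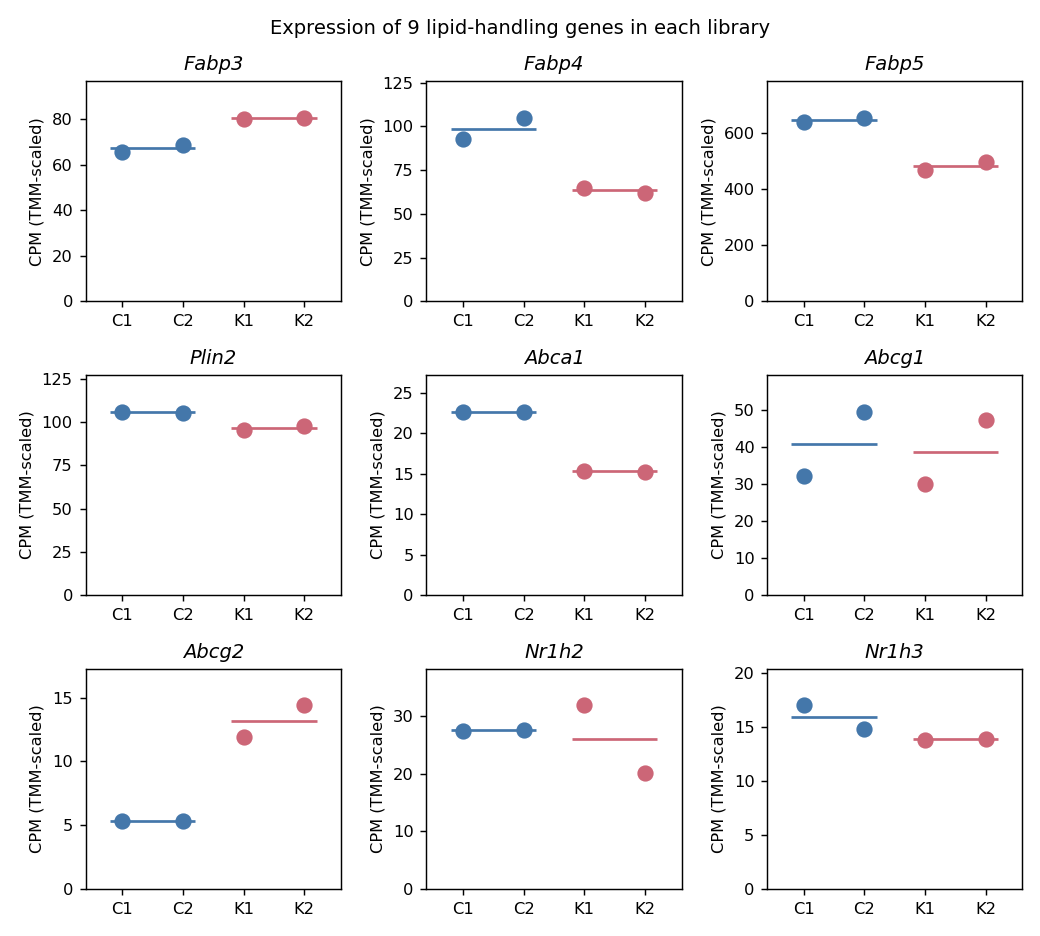
Expression in CPM after TMM scaling (y axis, from 0) in the control libraries (C1, C2, blue) and the knockdown libraries (K1, K2, red), with a line at each group mean. Abcg2 is higher and Fabp4 and Fabp5 are lower in both knockdown libraries than in both controls, while Abcg1 splits by library number within both groups.

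The 3 FABP genes detected well here lie at 2 places in the genome (GRCm38). Fabp5 (ENSMUSG00000027533, chromosome 3, 10012548 to 10016607, plus strand) and Fabp4 (ENSMUSG00000062515, chromosome 3, 10204088 to 10208576, minus strand) share a cluster with Pmp2, Fabp9 and Fabp12. Fabp3 (ENSMUSG00000028773) lies on chromosome 4, 130308595 to 130315463, plus strand. Their coding sequences are related but far from identical, at 60.6% between Fabp4 and Fabp5, 65.1% between Fabp4 and Fabp3 and 57.3% between Fabp3 and Fabp5. The best conserved ungapped stretch of 60 coding bases, from the GENCODE M21 transcripts, is shown because it bears on whether reads of the 3 genes could be mixed up; capitals mark bases that differ from Fabp4, 16 in Fabp5 and 13 in Fabp3.
Fabp4: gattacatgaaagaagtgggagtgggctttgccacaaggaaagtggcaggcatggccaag
Fabp5: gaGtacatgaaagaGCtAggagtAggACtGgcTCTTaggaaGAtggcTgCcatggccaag
Fabp3: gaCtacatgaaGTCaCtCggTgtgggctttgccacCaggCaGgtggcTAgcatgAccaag
The stretch covers coding bases 55 to 114 of Fabp4 and Fabp3 and 61 to 120 of Fabp5. Near copies elsewhere (at least 90% identical over at least 50% of the coding sequence) were found for Fabp5 and Fabp3. Fabp5 had 5, all processed pseudogenes, of which 3 had counts, together 0.71% to 1.2% of Fabp5's own count in each library. Fabp3 had 1, Fabp3-ps1, with 0.24% to 1.08% of its count.

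Fabp4, the adipocyte-type carrier that macrophages also make, fell. It had 93.0 and 105 CPM in the control libraries and 64.7 and 62.0 CPM in the knockdown libraries, so both knockdown libraries lay below both controls. The group means were 98.8 ± 8.20 and 63.4 ± 1.94 CPM (SD, n = 2 each), a log2 fold change of -0.64 ± 0.09 (SE; 95% interval -0.86 to -0.42; adjusted p = 0.0385 by edgeR, Benjamini-Hochberg). Fabp4 is also a marker of adipocytes, of whose 8 markers 7 were at 0 counts. The neural trace Mbp had 658 and 575 counts in control and 298 and 4 counts in knockdown libraries. The part of other cell types or of these neural traces in the result was not tested.

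Fabp5, the epidermal-type carrier and the most abundant of the 10 genes, fell by a smaller factor. Its levels were 639 and 654 CPM in control and 468 and 495 CPM in knockdown libraries, again without overlap. The log2 fold change was -0.43 ± 0.07 (SE; 95% interval -0.59 to -0.27; adjusted p = 0.0483 by edgeR, Benjamini-Hochberg), close to the threshold. Fabp5 ranked 231st by abundance among 15733 tested genes. The 4 microglial markers called lower shared the direction of Fabp4 and Fabp5, while the other markers of that list were not called. In counts (control 1, control 2, knockdown 1, knockdown 2) C1qa had 804, 588, 225 and 223, and Aif1 had 1530, 1452, 712 and 728. In the same order Lyz2 had 24545, 21194, 11073 and 11552, and Csf1r had 23640, 19265, 17131 and 13633. The part of these markers in the result was not tested.

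Fabp3, the heart-type carrier, lay on the other side. It had 65.7 and 68.9 CPM in control and 80.1 and 80.7 CPM in knockdown libraries, so the groups did not overlap. The difference of 0.26 ± 0.08 on the log2 scale (SE; 95% interval 0.07 to 0.45) did not pass over all genes (adjusted p = 0.229 by edgeR, Benjamini-Hochberg; unadjusted p = 0.0157). Fabp3's exons overlap those of Zcchc17 and Gm10570 on the opposite strand by 161 bases, and the sources used here do not state whether counting used the strand, so its level is uncertain by what those genes contribute.

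Within a library, where scaling between libraries drops out, the deposited FPKM of Fabp5 was 2.25 and 2.19 times that of Fabp3 in control and 1.35 and 1.41 times in knockdown libraries. Fabp4 stood at 0.116 and 0.127 of Fabp5 in control and at 0.110 and 0.0996 in knockdown libraries. In both ratios the groups did not overlap. The exact two-sided permutation test gave p = 0.333 for each, the smallest that 2 libraries against 2 allow, and 0.555 after adjustment over the 5 ratios compared. The size of these ratios depends on the gene lengths behind the FPKM, while their change between groups does not. In CPM per kilobase of a coding transcript Fabp5 had 653 and 672 against 80.4 and 84.9 for Fabp3 in control libraries. In knockdown libraries Fabp5 had 470 and 494 against 96.5 and 96.6 for Fabp3.

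The neighbours of Fabp4 in the cluster were not detected at this depth: Pmp2 (peripheral myelin protein), Fabp9 and Fabp12 had 0 counts in all 4 libraries. For counting error this allows up to 0.159 to 0.197 CPM. Pmp2 shares 1224 exonic bases and Fabp9 344 with Gm37389 on the same strand. How reads from shared bases were counted is not stated in the sources used here, so for Pmp2 and Fabp9 that limit may not hold. Of the carriers encoded elsewhere, Fabp7, the brain type, was close to the floor at 0.249 and 0.210 CPM in control and 0.311 and 0.158 CPM in knockdown libraries. Fabp2 had 0 counts in all 4 libraries.

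Plin2 (ENSMUSG00000028494, chromosome 4, 86648386 to 86670060, minus strand), the perilipin found on droplets of most cell types, had 106 and 105 CPM in control and 95.1 and 97.8 CPM in knockdown libraries. Both knockdown libraries were below both controls, by a small margin. The log2 difference was -0.13 ± 0.07 (SE; 95% interval -0.31 to 0.05; adjusted p = 0.494 by edgeR, Benjamini-Hochberg), so a fall to 0.808 of the control level or a rise to 1.03 of it are both within the interval.

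**Figure D2:**
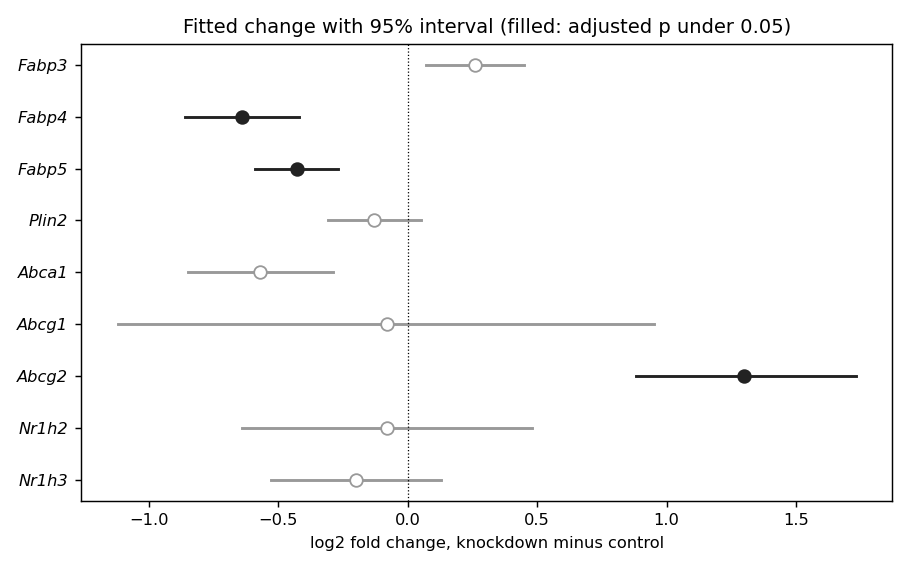
Fitted log2 fold change (knockdown minus control, x axis) of the 9 tested genes with a 95% interval. The interval was derived from the F statistic of edgeR's fit. Points are filled where the adjusted p over all genes was under 0.05. Abcg2 at 1.30, Fabp4 at -0.64 and Fabp5 at -0.43 are filled, and Abcg1 has the widest interval, from -1.12 to 0.95.

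Of the 3 transporters of the ABC family 1 rose, Abcg2, and Abca1 and Abcg1 did not pass the test. Abcg2 (ENSMUSG00000029802, chromosome 6, 58584523 to 58695676, plus strand) encodes an exporter of drugs, porphyrins and urate that is known from drug resistance rather than from cholesterol efflux. It had 5.35 and 5.30 CPM in control and 11.9 and 14.4 CPM in knockdown libraries, so both knockdown libraries were well above either control. The controls held 408 and 328 counts of it (102 and 82 fragments at the assumed 4 counts each), and the knockdown libraries 883 and 912 (221 and 228 fragments). The log2 fold change was 1.30 ± 0.18 (SE; 95% interval 0.88 to 1.73; adjusted p = 0.0319 by edgeR, Benjamini-Hochberg).

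Abca1 (ENSMUSG00000015243, chromosome 4, 53030787 to 53159895, minus strand), which passes cholesterol and phospholipid to lipid-poor apolipoprotein A-I, hardly differed between libraries of a group. Its levels were 22.7 and 22.6 CPM in control and 15.3 and 15.2 CPM in knockdown libraries, and the groups lay well apart. The log2 difference was -0.57 ± 0.12 (SE; 95% interval -0.85 to -0.29), which did not pass over all genes (adjusted p = 0.101 by edgeR, Benjamini-Hochberg). DESeq2 called it lower (adjusted p = 0.00276), a tool that called 5.09% of all genes. The adjusted p over the 17 other fits tried ran from 0.00276 to 0.344.

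Abcg1 (ENSMUSG00000024030, chromosome 17, 31057675 to 31117988, plus strand), which hands cholesterol to high-density lipoprotein, varied more within groups than between them. It had 32.0 and 49.5 CPM in control and 29.9 and 47.1 CPM in knockdown libraries. The libraries numbered 2 were high and those numbered 1 low in both groups, by 1.54-fold and 1.58-fold. The log2 difference was -0.08 ± 0.35 (SE; 95% interval -1.12 to 0.95; adjusted p = 0.957 by edgeR, Benjamini-Hochberg), and it turned positive when control replicate 2 (0.27) or knockdown replicate 1 (0.21) was left out. The ratio of Abca1 to Abcg1 in FPKM was 0.499 and 0.322 in control and 0.360 and 0.227 in knockdown libraries, which overlap (exact permutation p = 0.667, adjusted 0.834). The ratio of Abcg2 to Abcg1 was 0.149 and 0.0951 in control and 0.356 and 0.273 in knockdown libraries, without overlap (exact permutation p = 0.333, adjusted 0.555).

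Promoters are shown for Abca1 and Abcg2, the transporters whose groups did not overlap, as the 250 bases before the start site in RefSeq (GRCm38.p6). For Abca1, at chr4:53159896-53160145 on the minus strand, capitals mark a match to a direct repeat of the half-sites GGTTA and CGGTCA with 4 bases between them. That pattern was searched for because the Abca1 promoter is known for an LXR element of this kind, so finding it there is no result. For Abcg2, which has several start sites, the window at chr6:58640296-58640545 on the plus strand is shown because 6 of its 13 GENCODE transcripts start within 50 bases of its start site, and capitals mark the single half-site AGGTCA.
Abca1: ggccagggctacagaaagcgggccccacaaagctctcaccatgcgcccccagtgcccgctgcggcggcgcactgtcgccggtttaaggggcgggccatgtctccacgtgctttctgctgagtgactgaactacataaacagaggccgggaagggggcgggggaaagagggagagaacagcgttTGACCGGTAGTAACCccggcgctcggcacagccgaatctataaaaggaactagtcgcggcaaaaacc
Abcg2: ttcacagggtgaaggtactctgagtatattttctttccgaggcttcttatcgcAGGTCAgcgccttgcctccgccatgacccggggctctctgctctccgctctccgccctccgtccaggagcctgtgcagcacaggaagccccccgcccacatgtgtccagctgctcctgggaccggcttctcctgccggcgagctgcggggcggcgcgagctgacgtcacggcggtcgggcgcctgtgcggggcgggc
The Abca1 match lies on the reverse strand, 67 to 53 bases before the start site. Of 32851 RefSeq windows of 300 bases (250 before and 50 after the start), searched on both strands, 4 (0.0122%) hold that repeat. RefSeq gave 12 windows for 7 of the 10 genes, and Abca1's was the only one of the 12 with it. Direct repeats of AGGTCA with 4 bases between (5 windows, 0.0152%) or with 1 base between, the PPAR type (13 windows, 0.0396%), were in none of the 12. The half-site alone was in 5 of the 12 windows, of Abcg2, Plin2 and Pparg, and in 16.3% of all windows; it also forms part of both AGGTCA repeats. These are letter matches only.

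The lipid-sensing receptors themselves did not pass the test. Nr1h3 (LXR-alpha, ENSMUSG00000002108, chromosome 2, 91184061 to 91202834, minus strand) had 17.0 and 14.8 CPM in control and 13.8 and 13.9 CPM in knockdown libraries. The groups did not overlap, and the log2 difference was -0.20 ± 0.14 (SE; 95% interval -0.53 to 0.13; adjusted p = 0.598 by edgeR, Benjamini-Hochberg). Nr1h3 shares 34 exonic bases with Gm13783 on the same strand.

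Nr1h2 (LXR-beta, ENSMUSG00000060601, chromosome 7, 44549616 to 44553951, minus strand), the more abundant of the pair by FPKM in each library, had 27.5 and 27.6 CPM in control and 31.9 and 20.1 CPM in knockdown libraries. The knockdown libraries lay on either side of the controls. The log2 difference was -0.08 ± 0.22 (SE; 95% interval -0.64 to 0.48; adjusted p = 0.928 by edgeR, Benjamini-Hochberg), and without knockdown replicate 2 it was 0.22. The ratio of Nr1h3 to Nr1h2 in FPKM was 0.820 and 0.719 in control and 0.576 and 0.926 in knockdown libraries, which overlap (exact permutation p = 1.0).

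Pparg (ENSMUSG00000000440, chromosome 6, 115360951 to 115490399, plus strand) had 8 counts, 2 fragments at the assumed 4 counts each, in control 2 and 0 counts in the other libraries. All 4 values were under the floor of 12 counts, so neither group had detectable Pparg at this depth, and no fold change is given. It is the 1 gene of the 10 that was not tested.

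Levels can be set beside each other only per length, and the length mattered. The deposited FPKM (fragments scaled by gene length and library total) followed the union of all annotated exons of a gene: over 10965 genes the length implied by count and FPKM was 1.114 times that union at the median. Fabp4 and Fabp5 each have an annotated transcript that keeps introns, so their union spans 4489 and 3567 bases against 896 and 987 bases for the coding transcript. Fabp3 has 1 transcript of 823 bases. How much of the intron-keeping transcripts the cells made was not tested.

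By deposited FPKM, averaged over the 4 libraries, the order was Fabp5 (142), Fabp3 (80.5), Plin2 (25.9), Fabp4 (16.3), Nr1h2 (7.15), Nr1h3 (5.30), Abcg1 (4.88), Abca1 (1.65) and Abcg2 (1.01). Nr1h2, Nr1h3 and Abcg1 overlapped between libraries, and so did Abca1 and Abcg2. In CPM per kilobase of the coding transcript, by library totals, Fabp5 averaged 572, Fabp4 90.7, Fabp3 89.6 and Plin2 53.5. On that scale Fabp4 stood above Fabp3 in both controls (105 and 118 against 80.4 and 84.9) and below it in both knockdown libraries (71.6 and 68.2 against 96.5 and 96.6). On the FPKM scale Fabp4 was below Fabp3 in all 4 libraries. The same choice of length leaves every fold change between groups as it is, since it divides all 4 libraries alike.

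**Figure D3:**
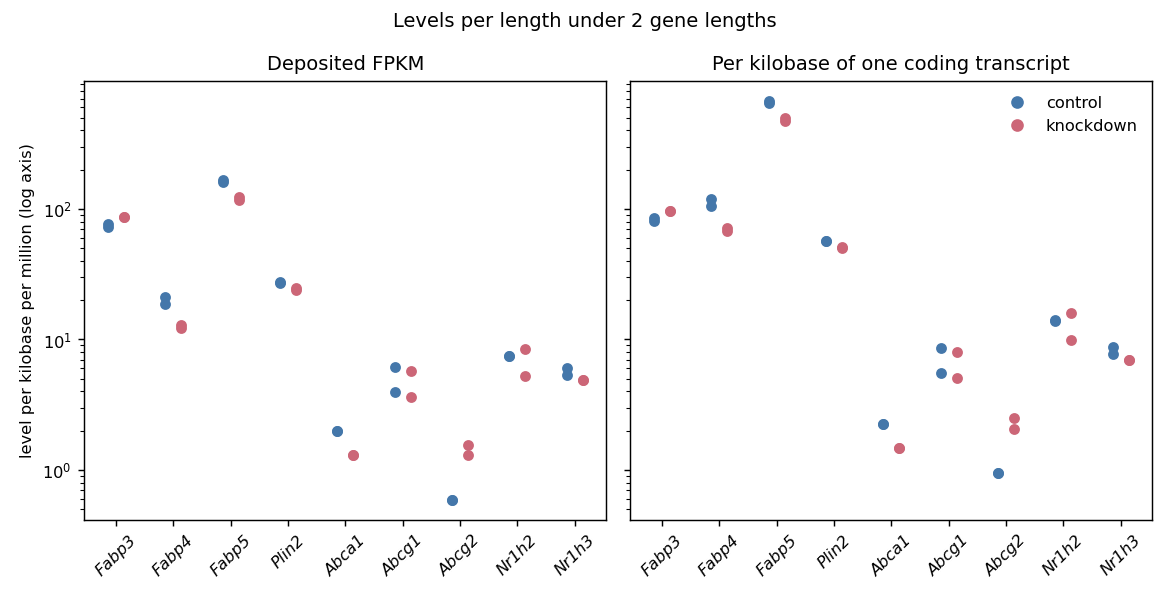
Level of the 9 genes in each library (log y axis, scaled by length and library total), as deposited FPKM on the left and as CPM per kilobase of a coding transcript on the right, controls blue and knockdown red. Fabp4 moves from below Plin2 on the left to the range of Fabp3 on the right, where its control points lie above and its knockdown points below those of Fabp3.

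The other genes of these pathways were read from 6 lists holding 119 genes apart from the 10, of which 92 were tested. By edgeR 1 rose, 2 fell and 89 did not pass, against 0.953% of all genes tested; the median log2 fold change was -0.03, beside -0.01 over all genes. DESeq2 called 4 higher and 4 lower, against 5.09% of all genes called by that tool. The groups did not overlap for 67.4% of the 92 genes and for 47.6% of all genes tested. The 3 calls came one each from droplet formation, efflux and the LXR targets, and all 3 were lost when any 1 library was left out.

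Of 28 genes of lipid droplet build-up and breakdown 21 were tested, and 1 fell, 0 rose and 20 did not pass (median log2 fold change 0.00). The gene that fell was Dgat2, which makes triglyceride in the last step of its synthesis. Its mean was 125 ± 0.0151 CPM in control against 89.2 ± 1.08 CPM with knockdown (SD, n = 2 each), a log2 fold change of -0.49 ± 0.07 (SE; adjusted p = 0.0428 by edgeR, Benjamini-Hochberg). Both knockdown libraries lay below both controls. Below an unadjusted p of 0.05 lay 2 higher and 3 lower of the 21, against 14.2% of all genes tested.

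Of 21 lipid and drug efflux transporters 17 were tested, and 1 rose, 0 fell and 16 did not pass (median 0.06). The gene that rose was Abcb1b, one of the mouse P-glycoprotein genes and, like Abcg2, a drug exporter. It had 42.4 and 43.3 CPM in control and 63.6 and 70.2 CPM in knockdown libraries, a log2 fold change of 0.64 ± 0.09 (SE; adjusted p = 0.0379 by edgeR, Benjamini-Hochberg). Below an unadjusted p of 0.05 lay 3 higher and 1 lower of the 17 (14.2% of all genes tested). Among these, Abcb4, a phospholipid exporter, had 3.00 and 3.10 CPM in control and 5.82 and 5.80 CPM in knockdown libraries (adjusted p = 0.159 by edgeR, Benjamini-Hochberg; called by DESeq2). Abcc3, an exporter of organic anions, lay the other way, with 10.5 and 11.4 CPM in control and 7.52 and 7.60 CPM in knockdown libraries (adjusted p = 0.215 by the same test). Both were named after their values were seen.

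Of 15 LXR target genes 14 were tested, and 1 fell, 0 rose and 13 did not pass. Fitted values were below 0 for 11 of the 14 and for 8034 of all 15733 genes tested (median -0.23, all genes -0.01). The 11 include Pltp, close to the floor with 19 and 9 counts in control and 0 in both knockdown libraries. The gene that fell was Scd2, a fatty acid desaturase, from 600 and 647 CPM in control to 467 and 443 CPM in knockdown libraries (log2 fold change -0.45 ± 0.07, SE; adjusted p = 0.0490 by edgeR, Benjamini-Hochberg). Both knockdown libraries lay below both controls, and the call sat at the edge of the threshold. DESeq2 called 2 of the list lower, Scd2 and Apoc2 (5.09% of all genes were called by that tool). Below an unadjusted p of 0.05 by edgeR lay 0 higher and 4 lower of the 14, against 14.2% of all genes tested.

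Of 24 genes of fatty acid uptake and binding 15 were tested and 0 passed in edgeR's test; 3 lay below an unadjusted p of 0.05 (14.2% of all genes tested), 1 higher and 2 lower (median -0.09). DESeq2 called Lpl higher and Acsl5 lower (5.09% of all genes were called by that tool). Dbi, the acyl-CoA binding protein, had 176 and 185 CPM in control and 170 and 169 CPM in knockdown libraries (adjusted p = 0.649). Lpl, the lipase that frees fatty acids from lipoproteins, had 753 and 728 CPM in control and 932 and 904 CPM in knockdown libraries (log2 difference 0.31 ± 0.07, adjusted p = 0.105 by edgeR, Benjamini-Hochberg). Acsl5, an enzyme that links fatty acids to coenzyme A and was named after its values were seen, had 250 and 257 CPM in control and 194 and 205 CPM in knockdown libraries (adjusted p = 0.0969 by edgeR). Lpl lay higher and Acsl5 lower in both knockdown libraries.

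Of 17 PPAR target genes 14 were tested and 0 passed in edgeR's test. Below an unadjusted p of 0.05 (14.2% of all genes tested) lay 3, 1 higher and 2 lower. DESeq2 called 1 higher (Lpl) and 0 lower (5.09% of all genes were called by that tool). Of the 14 fitted values 12 were below 0, as were 8034 of all 15733 genes tested (median -0.13, all genes -0.01). Besides Lpl the most abundant was Ucp2, a mitochondrial carrier, with 400 and 354 CPM in control and 375 and 300 CPM in knockdown libraries (adjusted p = 0.645 by edgeR, Benjamini-Hochberg), which overlap.

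Of 17 nuclear receptor partners and cofactors 14 were tested and 0 passed in edgeR's test. Below an unadjusted p of 0.05 (14.2% of all genes tested) lay 3 higher and 1 lower. DESeq2 called 1 higher and 0 lower (5.09% of all genes were called by that tool). Here 12 of 14 fitted values were above 0, as were 7699 of all 15733 genes tested (median 0.14, all genes -0.01). The retinoid X receptors pair with LXRs and PPARs on DNA. Rxrb had 89.5 and 94.3 CPM in control and 113 and 104 CPM in knockdown libraries (adjusted p = 0.265), and Rxra had 114 and 109 CPM against 117 and 123 CPM (adjusted p = 0.599 by edgeR, Benjamini-Hochberg). Both lay slightly higher in both knockdown libraries.

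**Figure D4:**
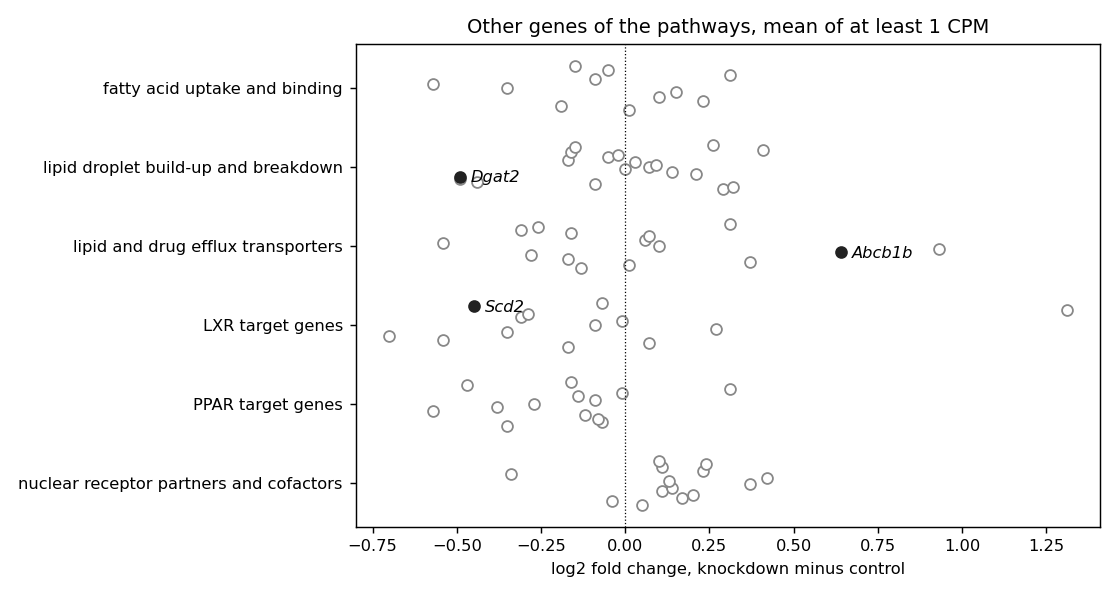
Log2 fold change (knockdown minus control, x axis) of each tested gene with a mean of at least 1 CPM in the 6 pathway lists, filled and named where the adjusted p was under 0.05; genes in 2 lists appear in both. Dgat2 (-0.49), Scd2 (-0.45) and Abcb1b (0.64) are filled, and the open points spread to both sides of 0.

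The genes whose pattern over the 4 libraries was nearest to each of the 3 called genes were taken from 9240 tested genes averaging at least 5 CPM, without predicted (Gm) or RIKEN names. Likeness was the distance between log2 CPM values after each gene's own mean was subtracted. For Fabp4 they were Septin2 (distance 0.0525) and Creb3l1 (0.0631), and for Fabp5 Fam49a (0.0302) and Tyk2 (0.0331). For Abcg2, whose knockdown libraries differed most of the 3, the nearest genes were farther off, Rfng (0.131) and Serpinb6b (0.147). With 4 libraries many genes share such a shape, so this is a description.

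The fold changes of the called genes kept their direction in the 17 other fits, while their calls did not. Fabp4 and Abcg2 were called in 8 of the 17 and Fabp5 in 7, with adjusted p up to 0.195, 0.213 and 0.219. Without edgeR's robust option the adjusted p was 0.0974 for Fabp4, 0.107 for Fabp5 and 0.0724 for Abcg2. Leaving out any 1 library ended all 3 calls, and limma on log2(FPKM + 1) gave Abcg2 a log2 fold change of 0.61, where the added 1 is about as large as Abcg2's own FPKM. The share of all genes called is the background for these counts. It was 0.922% with RLE factors, 0.877% with library totals only, 1.30% with no filter, 1.48% with a stricter filter of 1 CPM in all libraries, 1.03% with the newer dispersion method and 1.28% with counts divided by 4. It was 0.413% by limma-voom, 0.0445% without the robust option and also at an adjusted p of 0.01, and 0.0191% by limma on FPKM with either pseudocount. It was 0.0% with the replicate number as a block and 0.756% with that block crossed. Without control replicate 1 or 2 it was 0.373% and 0.244%, and without knockdown replicate 1 or 2 it was 0.664% and 0.249%.

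**Figure D5:**
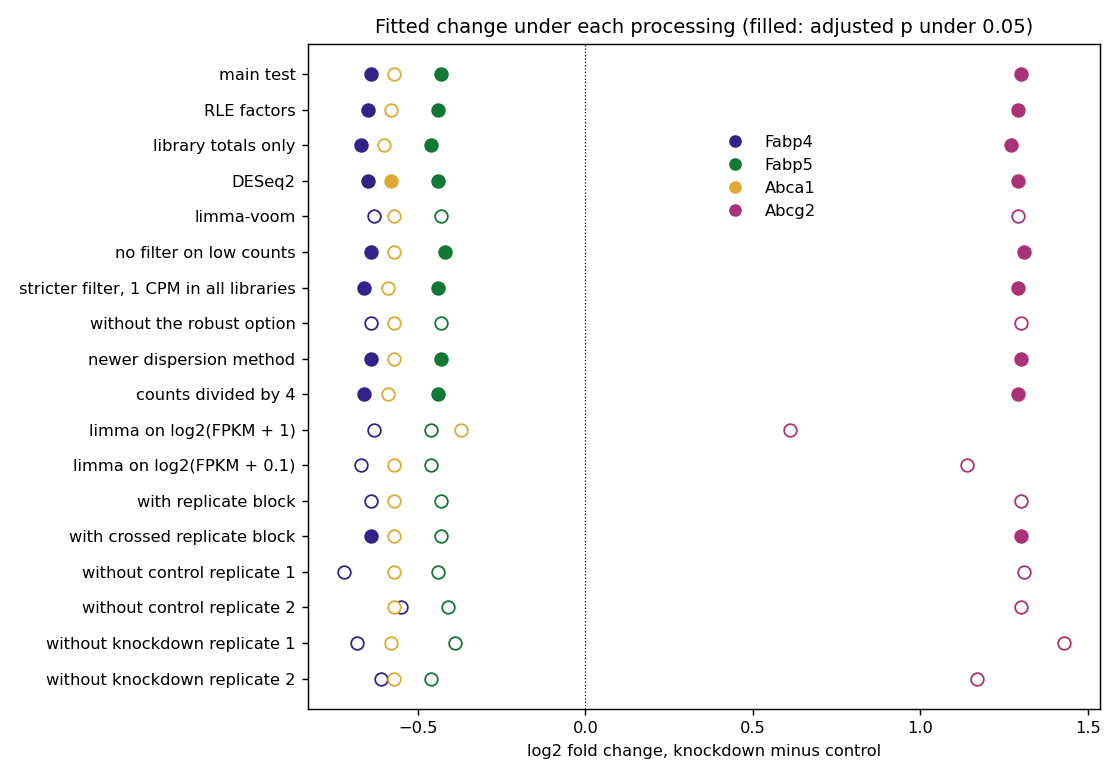
Log2 fold change (knockdown minus control, x axis) of Fabp4, Fabp5, Abca1 and Abcg2 under the main test and the 17 other fits (rows), filled where the adjusted p was under 0.05. Each gene stays on one side of 0 in every row, Abca1 is filled only for DESeq2, and none is filled where a library was left out.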

How the data were processed

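RNA from 4 LPS-treated BV-2 libraries was selected on oligo-dT beads and sequenced as strand-marked paired ends, per the labels' protocols. The authors deposited estimated counts per gene, not normalised and already whole, so no rounding was needed. Bowtie 0.12.2 and build mm8 stand in the submitters' processing notes; which program counted was not given in the sources used here. FPKM were also deposited by the authors, per the file headers. Coordinates of 89.6% of genes equalled those of GENCODE M21 (GRCm38), and positions are given on that build. A further 12 columns match none of the labelled samples and were left out. From the counts, genes were filtered with filterByExpr, scaled by TMM and tested in R 4.3.3 with edgeR 4.0.16 (quasi-likelihood, robust, two-sided), with Benjamini-Hochberg adjustment over all 15733 genes; scripts were tested on simulated data. The 10 genes, the lists and the alternatives (limma 3.58.1, DESeq2 1.42.0 and others) were chosen with earlier results of these data known. Besides the 10, each list's genes past the threshold were named, up to 4, or the 2 of highest FPKM where none passed; Pmp2, Fabp9 and Fabp12; and the 2 genes of nearest pattern. The marker genes, Fabp1, Fabp2, Fabp7, Fabp3-ps1, Scd1, Abcb4, Abcc3, Acsl5, Apoc2 and the genes that overlap members fall outside that rule. So do Pltp, Six2 and Gm37389.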

Additional observations from a re-analysis of the deposited data

How the results depend on the processing

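Against 150 genes called over the whole table, 801 were called by DESeq2, 297 with no filter on low counts, 65 by limma-voom, 7 without the robust option, 7 at an adjusted p of 0.01, and 3 by limma on log2(FPKM + 1) or log2(FPKM + 0.1). Of the 10 genes, 3 were called in the main test and 4 by DESeq2. The count was 0 under limma-voom, without the robust option, under limma on FPKM with either pseudocount, and at an adjusted p of 0.01. In those fits 5 or 6 of the 10 were below an unadjusted p of 0.05, as were 13.6% to 14.5% of all genes. Of the other pathway genes, 3 in the main test became 8 by DESeq2 and 0 in the same fits as above. Without each library in turn, 41 to 112 genes were called, 0 of the 10 and 0 of the other pathway genes; in each such fit 19 to 38 of the genes called were among the 150. The group left with 1 library was then assumed to vary like the other.

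With the replicate number as a block, edgeR called 0 genes (2055, or 13.1%, at an unadjusted p of 0.05), 0 of the 10 (5 unadjusted) and 0 other pathway genes (22 unadjusted). The deviations of same-numbered libraries correlated at 0.0486 over all tested genes and at -0.185 over genes of at least 5 CPM, so the labels' numbers were not taken as a pairing. With the pairing crossed, a setting added after the data were seen, 119 genes, 2 of the 10 and 0 other pathway genes were called. Directions turned for Abcg1 without control replicate 2 (0.27) or knockdown replicate 1 (0.21) and for Nr1h2 without knockdown replicate 2 (0.22); without each library they ran from -0.44 to 0.27 and from -0.46 to 0.22. The log2 difference of the Nr1h3 to Nr1h2 ratio, -0.07, ran from -0.41 to 0.27 without each library (0.02 without control replicate 1, 0.27 without knockdown replicate 1). The ranges were -0.28 to -0.14 for Fabp4 to Fabp5, -0.72 to -0.65 for Fabp5 to Fabp3, -0.82 to -0.15 for Abca1 to Abcg1 and 1.06 to 1.71 for Abcg2 to Abcg1. The cause of these differences was not tested. Depth limits Pparg and the 3 undetected FABP genes of the cluster, which lie under 12 counts. For Pmp2 and Fabp9 the exons shared with Gm37389 are a further limit.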

Other observations

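Single libraries stood out at genes close to those described. Fabp1, the liver-type carrier, had 0 counts in both controls and knockdown 1 and 87 counts in knockdown 2. Scd1, a desaturase related to Scd2, had 0.892 and 1.33 CPM in control, 0.608 CPM in knockdown 1 and 4.90 CPM in knockdown 2. Both genes were high in knockdown 2, the library with 0 counts for all 6 neuron markers, but Fabp1 did not pass the filter on low counts and Scd1 was not called (adjusted p = 0.674 by edgeR, Benjamini-Hochberg).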
